A study of Danio rerio with 30 samples.

Results

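MicroRNAs (miRNAs) of adult zebrafish spleens were compared between control fish that had developed at 32 °C and control fish that had developed at 24 °C. The comparison takes 5 libraries at 32 °C (replicates 3, 6, 7, 8 and 9) and 5 at 24 °C (replicates 1, 3, 5, 8 and 9), which is 10 of the 30 libraries of the series. The groups were taken from the sample labels, and all 364 miRNA rows that passed a filter on low counts, of 8866 rows in the table and 1591 with any count, were tested. The series asks whether incubation temperature leaves a lasting mark on the miRNAs of the adult.

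All fish were of the AB laboratory strain and 100 days old, and neither control group was given lipopolysaccharide (LPS), a bacterial cell wall component. The remaining 20 libraries are 5 controls incubated at 28 °C and 5 LPS fish at each of 24, 28 and 32 °C. The LPS fish were sampled 12 h after 2 µl of LPS at 50 mg/ml. These 20 libraries entered the count filter, the scaling and the estimate of the spread behind the comparison, and below they also place it. Both embryos and larvae were held at the incubation temperature. Adults were held at 28 °C, and it is unclear whether this means the sampled fish or their parents. The sources used here give neither the sex of the fish nor whether controls received a sham injection. Nothing in the labels ties each replicate to a fish of its own, so the p-values refer to the spread among these samples, which may be technical.

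A mature miRNA is a short RNA that guides Argonaute proteins to partly matching messenger RNAs and lowers their translation or stability. The teleost spleen filters blood, stores red cells and lymphocytes and holds macrophages on a vascular and stromal scaffold, so its miRNAs are a mixture from all of these cells. Fish are ectotherms, and the temperature of the water in early life sets the pace of development. In such whole-organ samples, fewer cells of a type and less RNA per cell cannot be told apart.

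Library totals differed strongly within and between the groups. The 32 °C libraries held 199431, 1016401, 7584818, 4709113 and 707314 counts in replicates 3, 6, 7, 8 and 9. The 24 °C libraries held 603137, 428851, 324324, 357366 and 282356 counts in replicates 1, 3, 5, 8 and 9. None of the 5 totals at 32 °C lay between the lowest and the highest total at 24 °C: replicate 3 lay below all of them and the other 4 above. The ratio of geometric means was 3.60 (two-sided exact permutation test, n = 5 each, p = 0.103, adjusted p = 0.172 over 5 library measures, smallest p possible 0.00794). Without replicate 3 at 32 °C it was 5.85 (exact p = 0.00794).

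Detection followed the same libraries. After each library was thinned at random to 199431 counts, rows with a count numbered 256, 267, 504, 416 and 400 at 32 °C and 221, 296, 261, 251 and 246 at 24 °C. The means were 369 ± 106 and 255 ± 27.2 rows (n = 5 each, SD, exact permutation p = 0.0556, adjusted p = 0.139). Replicates 7, 8 and 9 at 32 °C stood above every 24 °C library, and replicates 3 and 6 stood among them. Before thinning the means were 509 ± 281 and 279 ± 35.5 rows (exact p = 0.0556, adjusted p = 0.139). Rows with at least 5 counts after thinning numbered 246 ± 47.2 at 32 °C and 215 ± 16.3 at 24 °C (exact p = 0.222, adjusted p = 0.278). A count of 0 allows up to 3 counts, which is 0.598 to 13.1 CPM (counts scaled to a common library total) in the 32 °C libraries and 4.49 to 8.78 CPM in the 24 °C libraries. These limits cover counting error only.

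**Figure D1:**
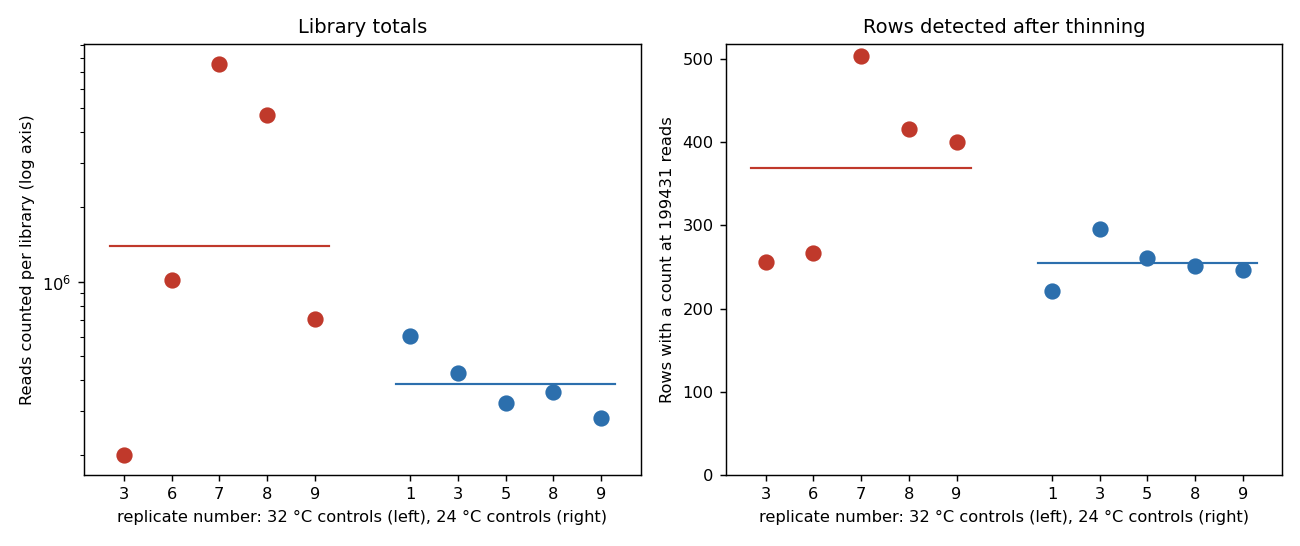
Reads counted per library on a log axis (left panel) and rows with a count after thinning every library to 199431 reads (right panel), for the 32 °C controls (red) and the 24 °C controls (blue) by replicate number. Lines mark the geometric mean of the totals and the mean of the rows. The totals at 32 °C spread from 199431 to 7584818 reads and surround those at 24 °C, and replicates 7, 8 and 9 at 32 °C lie above every 24 °C library in rows detected.

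A few miRNAs made up most of every library. The 10 most abundant rows of a library held 76.4 ± 5.37% of its counts at 32 °C and 76.7 ± 1.66% at 24 °C (n = 5 each, SD, exact permutation p = 0.873, adjusted p = 0.873). let-7a, from a family abundant in differentiated tissue, held 35.6 ± 10.2% of the counts at 32 °C and 26.0 ± 6.89% at 24 °C. miR-92a-3p, from the miR-17-92 group linked to proliferation of blood progenitors, held 6.79, 20.8, 2.02, 12.1 and 4.38% at 32 °C and 20.3, 23.8, 15.9, 23.1 and 25.1% at 24 °C. Only replicate 6 at 32 °C reached the 24 °C range of miR-92a-3p. In CPM scaled by the TMM method, which sets libraries to a common total after a trimmed comparison of their rows, miR-92a-3p had a log2 difference of -0.81 ± 0.51 (SE, edgeR, adjusted p = 0.364). That difference was 0.16 without replicate 3 at 32 °C, where the median over all tested rows also rose, from 0.44 to 1.40.

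Replicate 7 at 32 °C stood apart in composition as well as in depth. miR-143 took 14.6% of its counts, against 1.15 to 2.57% in the other 32 °C libraries and 0.200 to 1.40% in the 24 °C libraries. let-7a took 21.3% of that library, less than in any other 32 °C library. In 43 of the 364 rows, over 50% of the CPM summed over the 10 libraries came from replicate 7 alone. Each result below is therefore given with its value without this library where that ends a call.

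**Figure D2:**
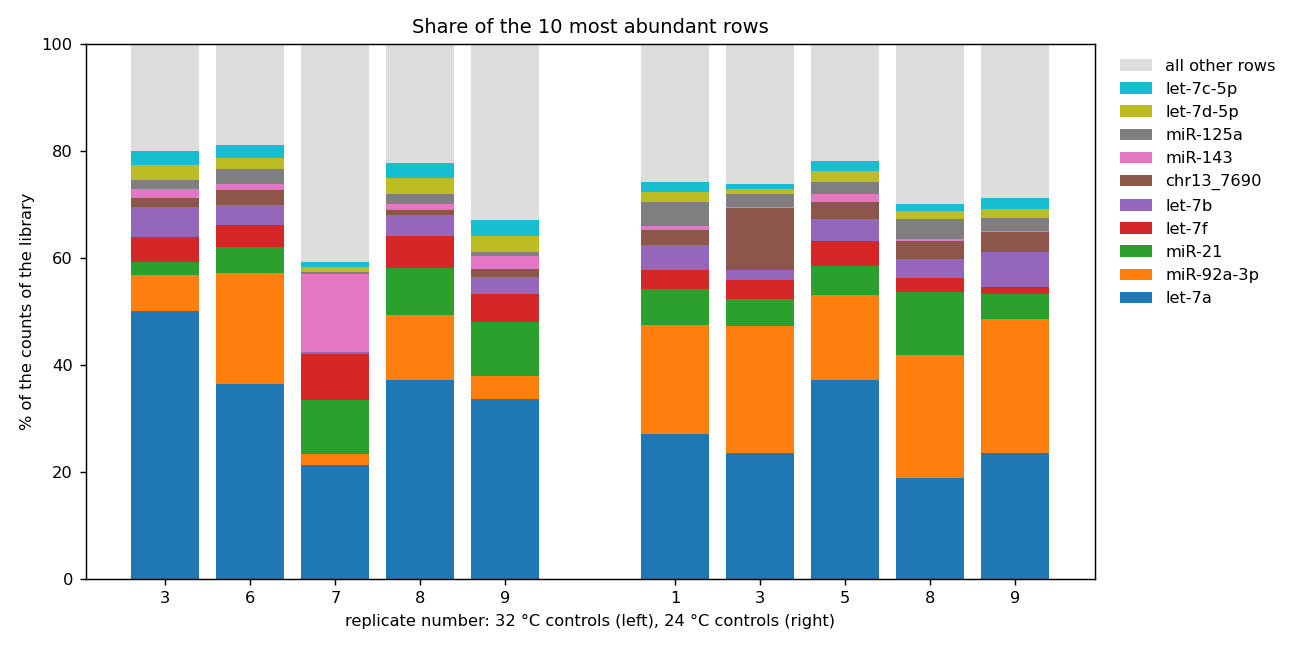
Share of each library's counts taken by the 10 rows with the highest mean CPM, for the 32 °C controls (left) and the 24 °C controls (right) by replicate number, in percent of the counts. let-7a takes 21.3 to 50.0% of the 32 °C libraries and 18.9 to 37.2% of the 24 °C libraries, and the miR-143 band of 14.6% in replicate 7 at 32 °C is wider than in any other library.

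The markers of the spleen were partly present. miR-150, of mature lymphocytes in mammals, had 1865 to 8260.1 CPM at 32 °C and 1568 to 6543 CPM at 24 °C. miR-451, a red cell miRNA needed for erythrocyte maturation in zebrafish, had 1704, 1724, 52781, 3945 and 7886 CPM at 32 °C and 1663, 10832, 5439, 4449.8 and 1849 CPM at 24 °C. miR-223, of granulocytes and macrophages, was low at 1.19 to 1155 CPM at 32 °C and 0 to 342 CPM at 24 °C. The row of miR-142 with the highest level, ola-miR-142, reached at most 777 CPM at 32 °C and 84.8 CPM at 24 °C, although miR-142 is a general miRNA of blood cells in mammals. Prefixes such as ola, oni, ssa, ccr, gmo, ipu and hsa mark rows that carry another species' name and may not be the zebrafish miRNA, and names without a prefix are zebrafish rows.

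At an adjusted p under 0.05, 3 rows differed between the 32 and 24 °C controls, which is 0.824% of the 364 rows tested (edgeR quasi-likelihood test, Benjamini-Hochberg adjustment). All 3 were zebrafish rows with higher CPM at 32 °C: miR-143, miR-16b and miR-126b-3p. No row was lower at that threshold by edgeR, where 13 rows (3.57%) were lower at an unadjusted p under 0.05, while DESeq2 called 10 rows lower and limma voom 19. Scaling by library total in edgeR left 2 of the 3 calls higher and added 1 lower, oni-miR-150. At an unadjusted p under 0.05 there were 81 rows (22.3%) over both directions, where 18.2 would be expected by chance. Of the 81, 68 (18.7% of the rows tested) were higher at 32 °C, and 33 of these had no count in any 24 °C control. Rows that vary with the same libraries are not independent, so the 81 cannot be judged against 18.2. The spread between libraries of a group was wide, with a common biological coefficient of variation of 1.79 over 24 residual degrees of freedom.

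The balance of higher and lower rows depended on the scaling. With TMM scaling, log2 differences were positive in 217 of 364 rows (59.6%), with a median of 0.44. They were positive in 201 rows with RLE scaling (median 0.28), in 187 with scaling by library total (0.05) and in 155 with the log of the total as a covariate (-0.33). Over the 113 rows with a count in all 10 libraries the TMM median was -0.10, and the other rows lacked a count in at least 1 library. In TMM-scaled CPM, fully separated groups, where every 32 °C library lay above every 24 °C library, were seen in 4 rows (1.1%): miR-143, miR-126b-3p, ipu-miR-99b and ola-miR-30c. The reverse held in another 4 rows (1.1%), chr3_30712-1 to chr3_30712-4, whose names give a chromosome and a number in place of a miRNA. In shares of the plain totals, 4 rows were separated with 32 °C higher, of which only ipu-miR-99b was among those 4, and 6 with 32 °C lower, which include the 4 chr3_30712 rows. miR-143 and miR-126b-3p overlapped between the groups in shares.

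**Figure D3:**
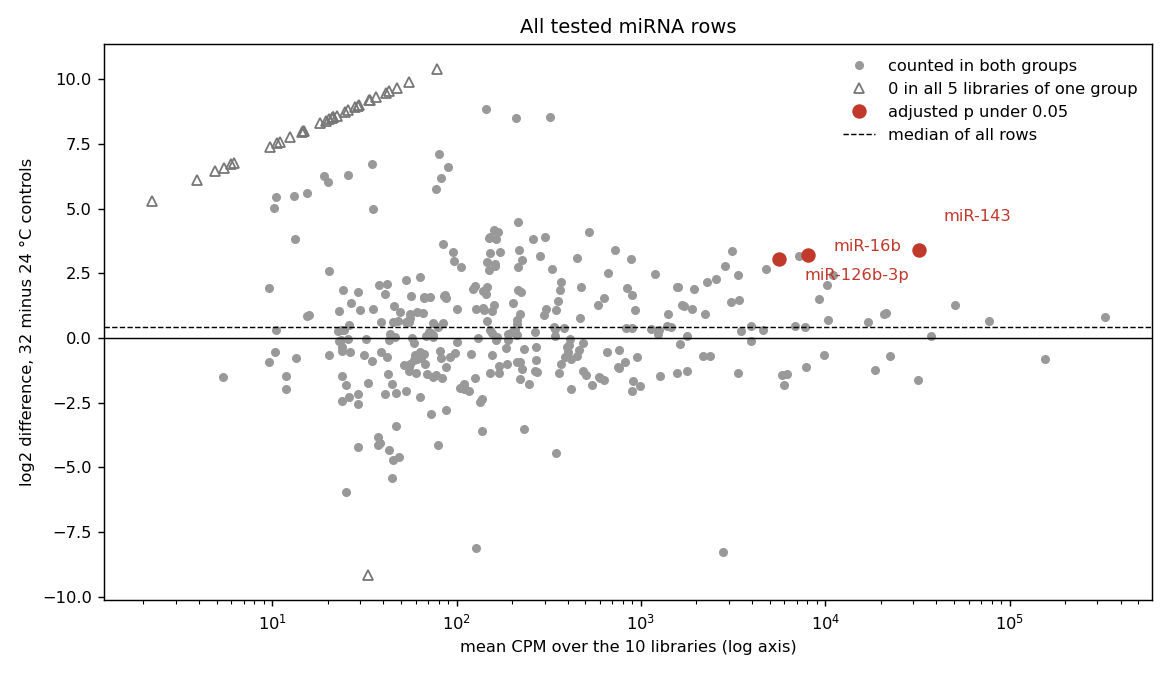
Log2 difference between the 32 and 24 °C controls against the mean CPM over the 10 libraries (log axis), 1 point per tested row. Triangles are rows at 0 in all 5 libraries of a group, whose fitted difference has no meaning as a size, and the dashed line is the median of 0.44. The 3 rows past the threshold, in red, lie among abundant rows at log2 differences of 3.06 to 3.39.

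miR-143 is made in smooth muscle and other stromal cells and helps to set their contractile state. It had 13412, 13974, 220449, 18062 and 27364 CPM in replicates 3, 6, 7, 8 and 9 at 32 °C and 6395, 3426, 13268, 3182 and 1609.7 CPM in replicates 1, 3, 5, 8 and 9 at 24 °C. With TMM scaling the groups did not overlap, but the lowest 32 °C library, replicate 3, lay just above the highest 24 °C library, replicate 5, and replicate 7 lay far above the rest. As a share of the plain totals they overlapped, with 1.15% in replicate 6 and 1.26% in replicate 8 at 32 °C, below the 1.40% in replicate 5 at 24 °C. miR-143 averaged 58652 ± 90619 CPM at 32 °C and 5576 ± 4635 CPM at 24 °C (n = 5 each, SD), and its log2 difference was 3.39 ± 0.69 (SE, edgeR, adjusted p = 0.00548). Without replicate 7 the log2 difference was 1.62 (edgeR, adjusted p = 0.196).

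miR-16b belongs to the miR-15/16 family, which represses cyclins and other drivers of the cell cycle. It had 1682, 2135, 35939.5, 8955 and 24110.5 CPM at 32 °C and 1705, 1880.5, 2059.7, 1168 and 999 CPM at 24 °C. Replicates 7, 8 and 9 at 32 °C were high, replicate 6 was just above the highest 24 °C library and replicate 3 lay within the 24 °C range, so the groups overlapped. These 3 high libraries were also those with the most rows detected after thinning. miR-16b averaged 14564 ± 14999.6 CPM at 32 °C and 1562 ± 459 CPM at 24 °C, with a log2 difference of 3.22 ± 0.77 (edgeR, adjusted p = 0.0290). Without replicate 7 it was 2.48 (edgeR, adjusted p = 0.196). The call was also lost without replicate 9 at 32 °C (2.86, adjusted p = 0.0666), without replicate 3, 8 or 9 at 24 °C (3.29, 3.12 and 2.99, adjusted p = 0.0816, 0.102 and 0.0785), and with the replicate number as a block (2.79, adjusted p = 0.153).

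miR-126b-3p is of the miR-126 family, which is made in endothelial cells and supports vascular integrity in zebrafish. It had 3033, 3045, 26451, 8047 and 9619 CPM at 32 °C and 2339, 279, 2168, 973 and 240 CPM at 24 °C. With TMM scaling the groups did not overlap, whereas as a share of the plain totals replicate 6 at 32 °C (0.251%) lay below replicate 1 at 24 °C (0.259%). Replicates 1 and 5 at 24 °C were well above the other 24 °C libraries. The means were 10039 ± 9637 CPM at 32 °C and 1199.9 ± 1007 CPM at 24 °C, with a log2 difference of 3.06 ± 0.79 (edgeR, adjusted p = 0.0493). The adjusted p was 0.196 without replicate 7 (log2 difference 2.21), 0.0659 with RLE scaling (2.68) and 0.0948 with scaling by total (2.52). It was 0.0666 without replicate 9 at 32 °C (2.92), and 0.128, 0.102 and 0.168 without replicates 3, 8 and 9 at 24 °C (2.81, 2.99 and 2.64).

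The 3 calls depended on single libraries, on the other groups in the fit and, in part, on how depth was handled. With only the 10 libraries compared in the fit, edgeR called 0 of 229 rows. miR-143, miR-16b and miR-126b-3p then had log2 differences of 3.72, 3.43 and 3.32 (edgeR, adjusted p = 0.0667 each). With all libraries thinned to 199431 counts, edgeR called 4 of 310 rows, all higher at 32 °C: the same 3 and miR-146a. The log2 differences were then 3.21 for miR-143 (adjusted p = 0.00213), 3.05 for miR-16b (0.0189), 2.87 for miR-126b-3p (0.0386) and 2.95 for miR-146a (0.0386). Without replicate 7 at 32 °C, edgeR called 0 rows (66 at an unadjusted p under 0.05), whereas DESeq2 called 24 rows, among them miR-16b, and limma voom 28, among them all 3. With the log of the library total as a covariate edgeR called 0 rows (47 at an unadjusted p under 0.05), and miR-143, miR-16b and miR-126b-3p had log2 differences of 1.98, 1.89 and 1.94 (adjusted p = 0.255 each). Since no 32 °C total lay within the range of the 24 °C totals, a comparison restricted to libraries sequenced to a like depth could not be made. Without replicate 3 at 32 °C, the shallowest library, edgeR called 30 rows, all higher at 32 °C. In that fit 269 of 386 rows had positive differences, and the median over all rows was 1.40, against 0.44 in the main fit.

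**Figure D4:**
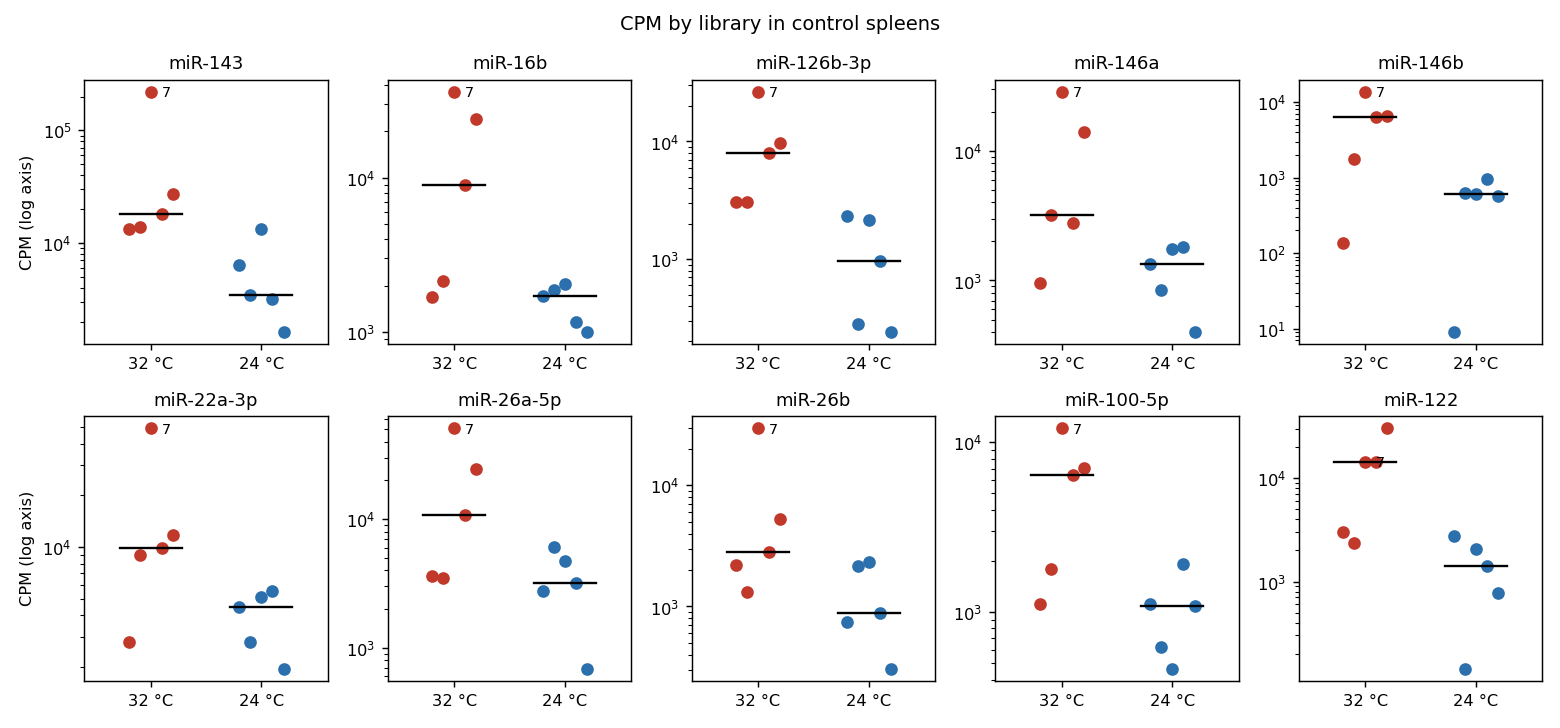
CPM by library (log axis) of the 3 miRNAs past the threshold and of the 7 next by p-value that were counted in all 10 libraries, in the 32 °C controls (red, left of each panel) and the 24 °C controls (blue, right), with lines at the medians. The point marked 7 is replicate 7 at 32 °C, the highest value in all panels but that of miR-122. In the panels of miR-143 and miR-126b-3p the groups do not overlap on this TMM-scaled axis, and for miR-143 the margin is 13412 against 13268 CPM.

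The 10 rows with the next smallest p did not pass the threshold in the main edgeR fit, and 9 of them had higher CPM at 32 °C. DESeq2 called all 10. edgeR called miR-146a, miR-146b, miR-22a-3p, miR-26a-5p and miR-26b with a stricter count filter, with the 15 controls alone and with rows summed over species. With the 15 controls alone it also called miR-100-5p and miR-122. Without replicate 7 at 32 °C, edgeR and DESeq2 called none of the 10, and limma voom called miR-122, miR-146b and miR-26a-5p. The 2 miR-146 rows come first. miR-146 is induced by NF-κB in mammals and represses adaptors of Toll-like receptor signalling. miR-146a had 959, 3222, 28463, 2753 and 14023 CPM at 32 °C and 1342, 840, 1749.6, 1809 and 400 CPM at 24 °C (log2 difference 3.01 ± 0.84, edgeR, adjusted p = 0.0694). miR-146b had 135, 1762, 13670.1, 6339.5 and 6584 CPM at 32 °C and 8.98, 622, 606, 949 and 565 CPM at 24 °C (3.37 ± 0.95, adjusted p = 0.0694). In both rows 4 of the 5 libraries at 32 °C lay above every 24 °C library, and replicate 3 at 32 °C lay among them.

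miR-26a-5p and miR-26b, of a family that represses the histone methyltransferase Ezh2 in mammals, had like profiles over the libraries. miR-26a-5p had 3643, 3516, 50690.5, 10773 and 24658 CPM at 32 °C and 2785, 6079, 4705, 3193 and 685 CPM at 24 °C (log2 difference 2.42 ± 0.70, edgeR, adjusted p = 0.0713). miR-26b averaged 8224 ± 11971 CPM at 32 °C and 1281 ± 904 CPM at 24 °C (2.68 ± 0.79, adjusted p = 0.0765). For both miRNAs replicates 3 and 6 at 32 °C lay within the 24 °C range. miR-22a-3p averaged 16528 ± 18582 CPM at 32 °C and 3959 ± 1536 CPM at 24 °C (2.06 ± 0.59, adjusted p = 0.0694). miR-100-5p, a companion of let-7 and miR-125 in conserved clusters, averaged 5689.8 ± 4449.8 CPM at 32 °C and 1040.4 ± 572 CPM at 24 °C (2.45 ± 0.78, adjusted p = 0.0963).

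miR-122, the defining miRNA of hepatocytes, had 3019.6, 2382, 14381, 14339.5 and 30449 CPM at 32 °C and 2769, 142, 2080.2, 1403 and 771 CPM at 24 °C (log2 difference 3.17 ± 1.04, edgeR, adjusted p = 0.0963). Here replicate 9 at 32 °C was highest, and 4 of the 5 libraries at 32 °C lay above every 24 °C library. The remaining 3 of the 10 were miR-27b-5p and miR-30b, which had no count in any 24 °C control and are described below, and chr4_36463, the only lower row. chr4_36463 had 0, 0, 19.9, 55.8 and 10.5 CPM at 32 °C and 0, 1127, 0, 0 and 26740.4 CPM at 24 °C. Its difference therefore came from 2 libraries at 24 °C.

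The 3 called rows and the 10 next were alike in part over libraries. Replicate 7 at 32 °C was the highest 32 °C library in 11 of these 13 rows. The mean of the 28 °C controls lay between those of 32 and 24 °C in 11 rows, above both in 1 and below both in 1. Since these rows were picked for their difference, this describes them and tests nothing.

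In the lists that follow, a row counts as called at an adjusted p under 0.05 in edgeR, and calls by DESeq2 and limma voom are given beside a count of 0. Over all 364 rows DESeq2 called 39 (10.7%) and limma voom 78 (21.4%). No list was tested against these shares. Each list is set beside all 364 rows, of which 59.6% were higher, 18.7% higher at an unadjusted p under 0.05, and the median log2 difference 0.44 (1.26 over the 161 zebrafish rows, 125 of them higher). These values hold for TMM scaling over all rows. With zebrafish rows scaled and fitted alone, 103 of 160 were higher and the median was 0.54.

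No immune miRNA passed the threshold in the main edgeR fit, but some passed in other edgeR settings. miR-146a passed with thinned libraries, a stricter count filter, the 15 controls alone and rows summed over species. miR-146b passed in all of these but the first, miR-221-5p with the 15 controls alone, and oni-miR-150 with total scaling and the stricter filter. Without replicate 3 at 32 °C, miR-146a, miR-146b, miR-155 and miR-221-5p passed. miR-146a and miR-146b also passed without replicate 6 or 8 at 32 °C or replicate 5 at 24 °C. Of the inflammation-induced list (miR-146, 155, 21, 132, 212, 147, 221 and 222), 15 rows passed the filter, 14 had higher CPM at 32 °C with TMM scaling (13 with RLE or total scaling), none passed the adjusted threshold and 5 were higher at an unadjusted p under 0.05, with a median log2 difference of 2.86. DESeq2 called 3 of them and limma voom 7. The list held 9.15 ± 4.65% of the counts at 32 °C and 7.55 ± 3.25% at 24 °C. miR-21, its most abundant member and induced in inflamed tissue, had 21804, 59017, 154080.4, 127877 and 108238 CPM at 32 °C and 61452, 56854, 50817, 92551 and 36847 CPM at 24 °C. Replicate 3 at 32 °C was the lowest of the 10 libraries for miR-21, and the log2 difference was 0.66 ± 0.47 (edgeR, adjusted p = 0.433). oni-miR-155, named for a miRNA of activated lymphocytes and macrophages, had 100, 0, 239, 123 and 293 CPM at 32 °C and 10.5, 0, 0, 2.22 and 0 CPM at 24 °C (adjusted p = 0.150).

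The teleost antiviral pair miR-462 and miR-731, which interferon induces in fish, filled 4 rows. All 4 had positive differences with TMM scaling, 3 with RLE and 2 with scaling by total. None was called by edgeR, DESeq2 or limma voom, and 1 was higher at an unadjusted p under 0.05. miR-462 had 4135, 902, 7999.9, 5623 and 6355 CPM at 32 °C and 2079, 2618, 1431, 1459 and 1373 CPM at 24 °C (log2 difference 1.48 ± 0.69, edgeR, adjusted p = 0.187). The row oni-miR-462, with more reads than the zebrafish row, had a log2 difference of 0.43 ± 0.56 (adjusted p = 0.775). Summed over both rows, miR-462 had a log2 difference of 0.68 ± 0.51 (edgeR on summed rows, adjusted p = 0.497).

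Leukocyte miRNAs were divided. Of 22 rows of miR-142, 223, 150, 181 and 155, 15 were higher and 7 lower with TMM scaling, 13 were higher with RLE and 12 with scaling by total, none was called, 3 were higher and 1 lower at an unadjusted p under 0.05, and the median log2 difference was 0.59, or 0.07 with scaling by total. DESeq2 called 2 rows and limma voom 3. Their summed share of counts was 1.96 ± 0.564% at 32 °C and 3.59 ± 1.32% at 24 °C. oni-miR-150 had 980, 2253, 1351, 4939.7 and 3506 CPM at 32 °C and 14344, 9521, 2636, 10106 and 9895 CPM at 24 °C (log2 difference -1.84 ± 0.61, edgeR, adjusted p = 0.0963). All 24 °C libraries but replicate 5 lay above every 32 °C library in that row. The zebrafish row miR-150 had a log2 difference of 0.46 ± 0.57 (adjusted p = 0.754), and the sum over the 3 rows with this name gave -1.02 ± 0.49 (edgeR on summed rows, adjusted p = 0.211). miR-181a-5p, of lymphocyte development, had a log2 difference of -0.67 ± 0.53 (adjusted p = 0.518).

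Vascular and stromal miRNAs did not share one direction. Of 24 rows of miR-126, 143, 145, 199 and 214, 18 were higher and 6 lower with TMM scaling, 15 were higher with RLE and 14 with scaling by total. Calls were 2, miR-143 and miR-126b-3p, and the median log2 difference was 0.91. miR-145-3p, encoded beside miR-143 in a shared precursor, had 100, 385, 3576, 1151 and 2674 CPM at 32 °C and 220, 10.5, 260, 448 and 0 CPM at 24 °C (log2 difference 3.07 ± 1.36, edgeR, adjusted p = 0.169). The other arm, counted under oni-miR-145, had a log2 difference of 0.09 ± 0.82 (adjusted p = 0.974). miR-199-5p, of fibroblasts and mesenchyme, averaged 434 ± 235 CPM at 32 °C and 1555 ± 1364 CPM at 24 °C (-1.84 ± 0.85, adjusted p = 0.186). It was the only zebrafish row lower at an unadjusted p under 0.05.

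Red cell miRNAs followed replicate 7. Of 5 rows of miR-144, 451 and 486, 4 were higher at 32 °C and none was called, with a median log2 difference of 2.49, or 2.00 with the row at 0 in all 24 °C libraries set to its bound. At an unadjusted p under 0.05, 2 were higher, and DESeq2 called 0 and limma voom 1. Their share of the counts was 5.19% in replicate 7 and 0.197 to 1.32% in the other 32 °C libraries, against 0.240 to 1.123% in the 24 °C libraries. miR-144-5p, made from the same precursor as miR-451 under the erythroid factor Gata1 in zebrafish, had 1185, 457, 18404, 1219 and 3718 CPM at 32 °C and 465, 985, 1480.4, 709 and 0 CPM at 24 °C (log2 difference 2.78 ± 1.16, edgeR, adjusted p = 0.150). The share of red cell miRNAs was thus highest in replicate 7, as were miR-143 and miR-126b-3p, and its part in those differences was not tested.

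let-7 and its companions, regulators of developmental timing, were the most abundant group. They held 56.0 ± 12.4% of the counts at 32 °C and 46.1 ± 8.62% at 24 °C. Of 33 rows, 23 were higher, none was called, 10 were higher and 2 lower at an unadjusted p under 0.05, and the median log2 difference was 0.78. DESeq2 called 4 rows and limma voom 10. let-7f had 40092, 48936, 127901, 85066 and 55372 CPM at 32 °C and 31463, 40475, 45516, 20143 and 11131 CPM at 24 °C (log2 difference 1.26 ± 0.44, edgeR, adjusted p = 0.0963). Only replicate 3 at 32 °C lay within the 24 °C range of let-7f. let-7a had a log2 difference of 0.80 ± 0.34 (adjusted p = 0.158), let-7c-5p of 0.94 ± 0.39 (0.150) and let-7d-5p of 0.96 ± 0.41 (0.163).

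Members of the let-7 group differed from each other. let-7b had 49295, 46902, 6246, 56488 and 33448 CPM at 32 °C and 42968, 20414, 39427, 28178 and 53193 CPM at 24 °C, a log2 difference of 0.06 ± 0.43 that was negative with RLE (-0.08) and total scaling (-0.29). miR-125a had a log2 difference of -0.69 ± 0.49 (edgeR, adjusted p = 0.430), and gmo-miR-125a-5p of -1.25 ± 0.47 (adjusted p = 0.109). With replicate 3 at 32 °C or replicate 5 at 24 °C left out, let-7a, let-7c-5p, let-7d-5p and let-7f passed the adjusted threshold. The median log2 difference of all tested rows also rose in these settings, from 0.44 to 1.40 and 1.41. Whether the let-7 rows moved beyond that shift was not tested.

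The cell-cycle miR-15/16 list had 9 rows, of which 7 were higher with TMM and RLE scaling and 6 with scaling by total; 1 was called, miR-16b, and the median log2 difference was 2.28. miR-16c-5p had 153, 516, 13432, 1931 and 5210 CPM at 32 °C and 455, 1475, 1767, 242 and 451 CPM at 24 °C (2.28 ± 0.95, edgeR, adjusted p = 0.151). As for miR-16b, replicates 7, 8 and 9 at 32 °C were above every 24 °C library and replicates 3 and 6 were low. The genes mir16b and mir15a-1 stand next to each other on a chromosome with 0 annotated genes between them (RefSeq gene table of assembly GRCz12tu). miR-15a-5p averaged 130 ± 177 CPM at 32 °C and 131 ± 127 CPM at 24 °C (log2 difference -0.01 ± 2.31, adjusted p = 0.998).

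The miR-17-92 group and its relatives, which promote growth of blood progenitors, took 9.89 ± 7.47% of the counts at 32 °C and 22.6 ± 3.85% at 24 °C. Nearly all of this was miR-92a-3p. Of 18 rows, 10 were higher with TMM scaling and 7 with RLE or total scaling, none was called, and the median log2 difference was 0.21, or -0.12 with RLE and -0.32 with total scaling. At an unadjusted p under 0.05, 3 rows were higher, and DESeq2 called 2 and limma voom 4. ola-miR-92b had a log2 difference of -1.34 ± 0.67 (edgeR, adjusted p = 0.229).

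The list of miRNAs that repress epigenetic enzymes in mammals (miR-29, 148, 152, 101 and 26) had 8 rows, of which 6 were higher, none was called and 5 were higher at an unadjusted p under 0.05. Its median log2 difference was 2.55, or 2.01 with rows at 0 in all 24 °C libraries set to their bounds. DESeq2 called 4 rows and limma voom 3. miR-152, which targets a DNA methyltransferase in mammals, had 4.36, 88.2, 1715, 119 and 161 CPM at 32 °C and 0, 5.27, 0, 0 and 0 CPM at 24 °C (adjusted p = 0.0963). Its value in replicate 3 at 32 °C, 4.36 CPM, was under the limit of 13.1 CPM that a count of 0 allows in that library.

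Of 20 hypoxia and stress rows (miR-210, 34, 24, 27 and 23), 12 were higher with TMM and RLE scaling and 10 with scaling by total, none was called and 6 were higher at an unadjusted p under 0.05 (median log2 difference 0.76). DESeq2 called 4 of these rows and limma voom 3. miR-210-5p, from the hairpin that HIF induces in low oxygen, had 658, 0, 607, 57.0 and 114 CPM at 32 °C and 0, 2.63, 0, 0 and 0 CPM at 24 °C (edgeR, adjusted p = 0.0963). The miR-30 family had 13 rows, of which TMM scaling put 12 above 0, RLE scaling 11 and total scaling 10; none was called, and the median log2 difference was 1.22. At an unadjusted p under 0.05, 2 were higher, and DESeq2 called 1 and limma voom 2. miR-30e-3p averaged 2492 ± 1866 CPM at 32 °C and 637 ± 493 CPM at 24 °C (1.97 ± 0.86, adjusted p = 0.163). Of 6 rows of miR-10 and miR-196, encoded within Hox clusters, 5 were higher and none was called (median log2 difference 2.52). Of these, 1 was higher at an unadjusted p under 0.05, and DESeq2 called 0 and limma voom 2. miR-10a-5p had 0, 152, 337, 43.6 and 263 CPM at 32 °C and 0, 5.27, 0, 0 and 0 CPM at 24 °C (adjusted p = 0.117).

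**Figure D5:**
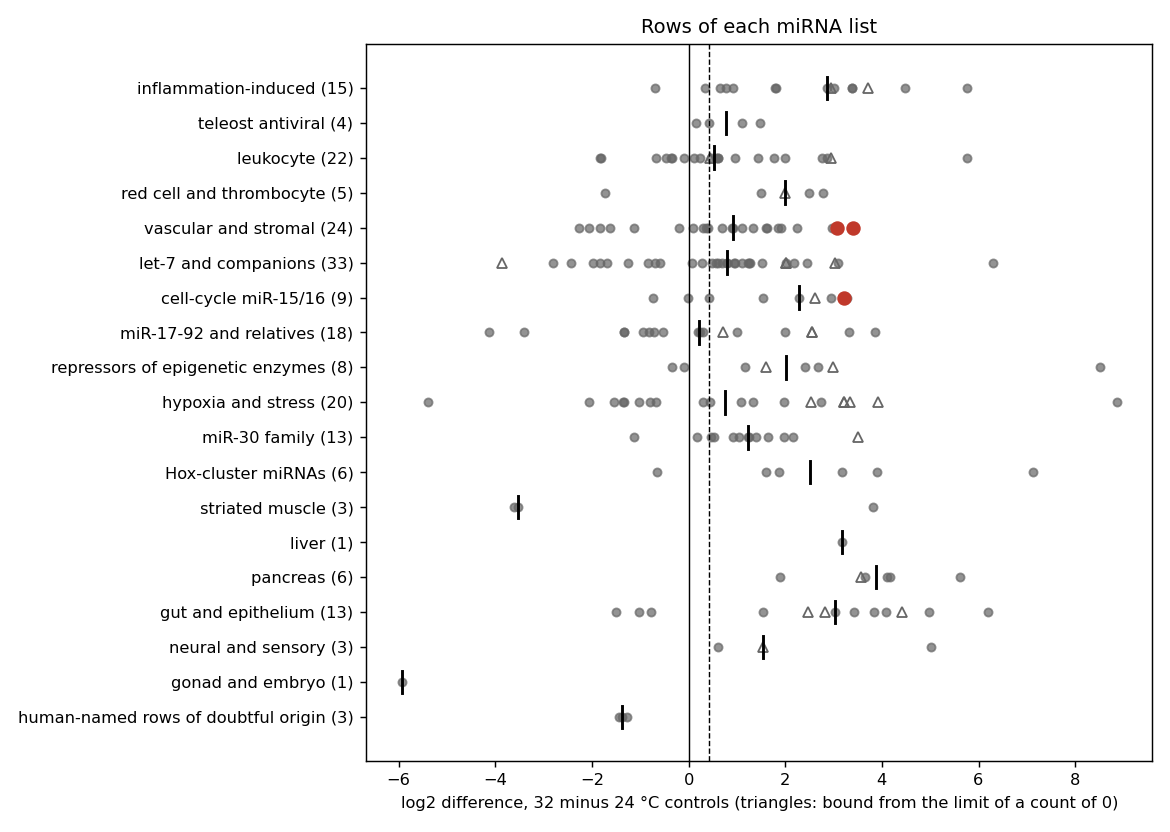
Log2 difference between the 32 and 24 °C controls for every tested row of each miRNA list, with the number of rows in brackets. Black ticks are list medians, triangles are bounds for rows at 0 in all 5 libraries of a group, red points are rows past the threshold, and the dashed line is the median of all rows. With TMM scaling most lists lie to the right of 0, and the red points are miR-143 and miR-126b-3p in the vascular list and miR-16b in the miR-15/16 list.

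miRNAs of neighbouring organs were also read, and some were higher at 32 °C. miR-122 of liver took 0.197 to 2.86% of the counts at 32 °C and 0.0126 to 0.307% at 24 °C. The main edgeR fit did not call the miR-122 row, while DESeq2 and limma voom did. edgeR did call it with the 15 controls alone and without replicate 3 at 32 °C. The 6 pancreas rows (miR-216, 217, 375 and 7) were all higher at 32 °C, none was called and 2 had an unadjusted p under 0.05, while DESeq2 called 0 and limma voom 4. They summed to 0.217 to 0.615% of the counts at 32 °C and 0.0387 to 0.222% at 24 °C. miR-375, of endocrine pancreas, had 5033, 2261, 992, 4566 and 2529 CPM at 32 °C and 859, 429, 717, 339 and 1787 CPM at 24 °C (log2 difference 1.90 ± 0.90, edgeR, adjusted p = 0.198). All 32 °C libraries but replicate 7 lay above every 24 °C library, so for miR-375 replicate 7 was the low library of its group.

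Of 13 gut and epithelial rows, 10 were higher, none was called and 4 had an unadjusted p under 0.05, with a median log2 difference of 3.84, or 3.03 with rows at 0 set to their bounds. DESeq2 called 2 rows and limma voom 3. They took 1.37% of the counts in replicate 9 at 32 °C, 0.0213 to 0.342% in the other 32 °C libraries and 0.0382 to 0.250% in the 24 °C libraries. miR-192, of liver and gut epithelium, had 0, 0, 353, 102 and 4499 CPM at 32 °C and 195, 0, 0, 0 and 94.2 CPM at 24 °C. Replicate 9 also had the highest miR-122. Striated muscle filled 3 rows, of which 1 was higher (miR-1) and none was called by edgeR, DESeq2 or limma voom. In that list miR-206-3p reached 2069 CPM in replicate 8 at 24 °C. The 3 neural rows were all higher at 32 °C under TMM and RLE scaling, and 2 were under total scaling. edgeR and limma voom called none of them and DESeq2 1, miR-9-5p, and they held at most 0.0245% of any library. The only gonad row, ssa-miR-202-5p, had 248 CPM in replicate 3 at 24 °C and at most 2.59 CPM at 32 °C. It was not called by edgeR, DESeq2 or limma voom. The part of tissue carried over with the spleen in the differences between the temperatures was not tested.

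A set of 34 rows had counts at 32 °C and none in any 24 °C control, whereas 1 row, hsa-let-7d-3p, showed the reverse. The zebrafish row let-7d-3p was itself among the 34. Summed over both rows, let-7d-3p had a log2 difference of -1.33 ± 2.22 (edgeR on summed rows, adjusted p = 0.816). Rows at 0 in a whole group passed the count filter only through libraries of other groups, and most 32 °C libraries were deeper. The set was picked for its 0 at 24 °C, so its size and its differences describe it and test nothing. Of the 34, 19 were zebrafish rows, 14 were named after other species and 1 after a chromosome. The main edgeR fit called none of them, although they were 33 of its 68 rows higher at an unadjusted p under 0.05, while DESeq2 called 15 and limma voom 11. edgeR called 1 of them with the 15 controls alone and 8 without replicate 3 at 32 °C. Of these 34 rows, 33 had a count in replicate 7, 29 in replicate 8 and 1 in replicate 3 at 32 °C. After thinning to 199431 counts all 34 still had a count at 32 °C, and 20 had one in at least 3 libraries. Counts were present in 28 of the 34 rows in the 28 °C controls, in 27 in the 24 °C LPS fish and in 34 in the 32 °C LPS fish.

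The 3 counts that a 0 allows in each library give a mean limit of 7.28 CPM at 24 °C. In most of these rows the mean CPM at 32 °C lay above that limit, by a margin that 1 library often set. Below, a fold is the mean at 32 °C over this limit, which leaves out the spread between libraries. Since the rows were picked for their 0 at 24 °C, the folds describe them and test nothing. miR-27b-5p had 0, 0, 234, 170 and 149 CPM at 32 °C, on average at least 15.2-fold higher by this measure. miR-221-5p, induced with inflammation, had 0, 66.7, 262, 63.1 and 84.2 CPM at 32 °C, at least 13.1-fold higher. miR-30b had 0, 2.38, 371, 41.8 and 0 CPM, at least 11.4-fold higher, and at least 1.52-fold without replicate 7. miR-155, a key miRNA of activated lymphocytes, had 0, 0, 150, 22.6 and 108 CPM at 32 °C, at least 7.72-fold higher. In each of these 4 rows replicate 3 at 32 °C had no count. miR-217 of exocrine pancreas was at least 11.9-fold higher, or 3.70-fold without replicate 7. These bounds describe single rows, and some of the miRNAs had reads under further names. The row oni-miR-30b averaged 4470 ± 3673 CPM at 32 °C and 1692 ± 1086 CPM at 24 °C. Summed over its 2 rows, miR-30b had a log2 difference of 1.47 ± 0.65 (edgeR on summed rows, adjusted p = 0.173). Over 3 rows miR-217 had 4.41 ± 2.29 (0.254), and over 2 rows miR-155 had 6.12 ± 2.36 (0.120). Of other rows, miR-19b-3p of the miR-17-92 cluster was at least 5.86-fold higher and miR-9-5p of brain at least 2.91-fold. Without replicate 7 the bounds were 7.35 for miR-221-5p, 4.496 for miR-155, 3.29 for miR-19b-3p and 1.84 for miR-9-5p. Over the 34 rows the bound had a median of 5.82 and a highest value of 21.4, for oni-miR-200a, and 33 of them were over 1. With the highest 32 °C library of each row left out, a choice made after seeing the data, the median was 2.10 and 24 were over 1. oni-miR-200a was then at 8.49, without replicate 9. In 17 of the 34 rows the highest library was replicate 7.

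The rows with lower CPM at 32 °C mostly did not carry a zebrafish miRNA name, which does not show where their RNA came from. With TMM scaling over all rows, zebrafish rows numbered 125 higher and 36 lower (median log2 difference 1.26). Rows named after other species numbered 81 higher and 61 lower (0.41), and chromosome-named rows 11 higher and 50 lower (-1.14). These counts depend on the scaling: with zebrafish rows scaled and fitted alone, 103 of 160 were higher and the median was 0.54. Of the 13 rows lower at an unadjusted p under 0.05, 7 had chromosome names, 5 the names of other species and 1 a zebrafish name. Zebrafish rows held 88.8, 89.2, 93.5, 92.3 and 89.6% of the counts at 32 °C and 83.6, 74.0, 87.5, 81.2 and 76.5% at 24 °C. Chromosome-named rows held 3.49, 3.88, 0.264, 1.15 and 1.78% at 32 °C and 4.17, 14.05, 4.71, 4.82 and 9.63% at 24 °C. In both shares the 2 groups did not overlap.

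Among these rows chr13_7690 was the most abundant, with 14841, 33937, 1429, 12620.5 and 14738 CPM at 32 °C and 25306, 129929, 30252, 27595 and 28892 CPM at 24 °C (log2 difference -1.64 ± 0.56, edgeR, adjusted p = 0.0963). Replicate 3 at 24 °C was far above the others, and replicate 6 at 32 °C lay within the 24 °C range. chr3_30712-3 had 0, 3.57, 6.37, 8.84 and 0 CPM at 32 °C and 64.4, 71.1, 64.4, 119.7 and 91.3 CPM at 24 °C (-4.35 ± 1.92, adjusted p = 0.169). The 24 °C libraries were alike in this row and all lay above the 32 °C libraries. The human-named rows hsa-miR-1260a, hsa-miR-1260b and hsa-miR-7977 had log2 differences of -1.45 ± 0.60, -1.38 ± 0.60 and -1.27 ± 0.73 (edgeR, adjusted p = 0.150, 0.163 and 0.323). edgeR and DESeq2 called none of these 3 rows, while limma voom called all 3. Together they held 0.0379 to 1.72% of the counts at 32 °C and 1.23 to 2.91% at 24 °C.

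The means of the 28 °C controls lay between those of the other groups for the called miRNAs, while single libraries overlapped. miR-143 averaged 5576 ± 4635, 17739.7 ± 6641 and 58652 ± 90619 CPM at 24, 28 and 32 °C (n = 5 each, SD). miR-16b averaged 1562 ± 459, 3221 ± 780 and 14564 ± 14999.6 CPM. miR-126b-3p averaged 1199.9 ± 1007, 2956 ± 900 and 10039 ± 9637 CPM. For miR-143 the 28 °C libraries ran from 9200 to 26610 CPM, a range that held replicates 3, 6 and 8 at 32 °C (13412, 13974 and 18062). For miR-126b-3p they ran from 1714 to 4042 CPM and held replicates 3 and 6 at 32 °C (3033 and 3045). For miR-16b they ran from 2048 to 4144 CPM, with replicate 3 at 32 °C below (1682) and replicate 6 within (2135). Neither step passed the threshold in any row in the main edgeR fit. In other edgeR settings, the step from 28 to 32 °C had 1 call with the 15 controls alone. The step from 24 to 28 °C had 3 calls with no count filter. It had 7 without replicate 3 at 32 °C and 6 without replicate 5 at 24 °C. The counts that follow for edgeR are of the main fit. Between 32 and 28 °C 0 rows were called (75 at an unadjusted p under 0.05, 20.6%), while DESeq2 called 21 and limma voom 45. Between 28 and 24 °C 0 rows were called (62 unadjusted, 17%), while DESeq2 called 31 and limma voom 0. The contrasts share the 28 °C libraries and cannot be read as separate evidence.

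The 32 and 24 °C groups of LPS fish are separate libraries under the same temperature contrast. At an adjusted p under 0.05 in edgeR, 2 rows (0.549%, against 67 unadjusted, 18.4%) differed between 32 and 24 °C in LPS fish, miR-146a and let-7f. DESeq2 called 25 rows in this contrast and limma voom 1. edgeR called 0 with replicate 5 of the 24 °C controls left out of the fit, and 6 without the 2 deepest 32 °C controls. miR-146a averaged 23099 ± 40030.1 CPM at 32 °C and 1314 ± 866 CPM at 24 °C in LPS fish (n = 5 each, SD), with a log2 difference of 4.14 ± 0.89 (edgeR, adjusted p = 0.00666). let-7f had a log2 difference of 2.18 ± 0.45 there (adjusted p = 0.00666). The 3 miRNAs called in controls had log2 differences of 2.32 ± 0.66 (miR-143, adjusted p = 0.0606), 2.63 ± 0.75 (miR-16b, 0.0606) and 2.22 ± 0.76 (miR-126b-3p, 0.116) in LPS fish. All 13 rows called or next in order in controls had the same sign in LPS fish. The median log2 difference over all tested rows was also positive in both, 0.44 in controls and 0.69 in LPS fish. How many of all tested rows kept their sign was not counted, so the match describes the 13 rows and tests nothing.

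Whether the 32 minus 24 °C difference itself differed between LPS fish and controls was tested as an interaction. edgeR called 0 rows (28 at an unadjusted p under 0.05, 7.69%, smallest adjusted p 0.391), while DESeq2 called 19 and limma voom 1. For miR-143 the interaction was -1.07 ± 0.89, for miR-16b -0.59 ± 1.00 and for miR-126b-3p -0.84 ± 1.04 on the log2 scale (LPS minus control, edgeR, adjusted p = 1.00 each). The smallest p was that of miR-375, whose log2 difference was 1.90 ± 0.90 in controls and -2.24 ± 0.91 in LPS fish (interaction -4.14 ± 1.28, adjusted p = 0.391).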

How the data were processed

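Small RNA was sequenced from 30 spleen samples. Per the labels' protocols, 50 ng of RNA went into each NEXTflex v3 library, with 22 cycles of PCR. Tools listed in the submitters' processing notes, without their roles, are FastQC 0.11.5, cutadapt 1.12, DESeq2 1.11.1 and bcl2fastq. For the aligner, counter and genome build: not given in the sources used here. Values are the raw counts per miRNA row that the authors deposited, in 1 table. No removal of PCR copies is recorded, so limits cover counting error only.

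Rows were kept by filterByExpr on the 6 groups; those left out held 0.230% of the counts of the 10 libraries compared. All 30 libraries were fitted with 1 mean per group in edgeR 4.0.16 (R 4.3.3; TMM factors of the 10 libraries 0.664 to 1.27; robust quasi-likelihood), and contrasts were adjusted by Benjamini-Hochberg over all 364 rows at 0.05. CPM use TMM-scaled totals, while shares use plain totals. Library measures were compared by exact permutation over 252 splits. No library was a copy of another: chi-squared per degree of freedom was at least 180 over 20 pairs within groups. The scripts were tested on simulated data. Alternatives were DESeq2 1.42.0, limma 3.58.1 voom with quality weights, other scalings, filters, sample sets, a covariate and each library left out.

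Named rows were those called, the 10 next by p with a mean of at least 10 CPM, the 3 smallest p of each list and the 10 most abundant. Others, such as miR-451, miR-150, miR-223, ola-miR-142, miR-181a-5p, miR-192, miR-199-5p, oni-miR-145, gmo-miR-125a-5p, miR-15a-5p and the chr3_30712 rows, were added with their values in view. The members and lists were chosen with earlier results of these data known, and lists were matched by family number across species names. Gene targets and sequences were not analysed here.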

Additional observations from a re-analysis of the deposited data

Results flagged for a closer look

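In 130 groups (64 named rows and the library totals at 32 and at 24 °C), 19 held a library whose distance to its nearest neighbour on the log2 scale passed Dixon's 95% limit for the range of the group. Chance would give about 1 in 20 groups, or 6.5 of 130, if all groups were equally open to a flag. They were not: a group without a count in any library cannot be flagged, and one with a count in only 1 library always is. Rows counted in the same libraries are also not independent, so the 19 cannot be judged against 6.5. The library was high in 13 groups and low in 6, and 5 groups were at 32 °C and 14 at 24 °C.

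At 32 °C, replicate 7 was far above the others for miR-143 (220449 CPM) and ssa-miR-202-5p (2.59 CPM) and far below them for let-7b (6246 CPM). Replicate 3 had 0 CPM of miR-221-5p and replicate 6 had 0 CPM of oni-miR-155, where the other 32 °C libraries had counts.

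At 24 °C, replicate 3 was far above the others in 8 rows. These were miR-10a-5p and miR-152 (5.27 CPM each), miR-210-5p, miR-216b and hhi-miR-182 (2.63 CPM each), ssa-miR-202-5p (248 CPM), hsa-miR-7977 (4614 CPM) and chr13_7690 (129929 CPM). In the 5 rows at 2.63 or 5.27 CPM this is under the 7.90 CPM that a count of 0 allows in that library, and the other 24 °C libraries had no count. Replicate 8 was high for miR-183-5p (179.6 CPM) and miR-1 (102 CPM), and replicate 5 for ccr-miR-10c (187 CPM). Replicate 9 was low for miR-144-5p (0 CPM), replicate 1 for miR-146b (8.98 CPM) and replicate 5 for oni-miR-150 (2636 CPM).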

How the results depend on the processing

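The number of rows called moved widely. Against 3 in the analysis as reported, it was 39 with DESeq2, 78 with limma voom, 4 with all libraries thinned to 199431 counts, 1 with no count filter, 9 with a stricter one, 0 with only the 10 libraries compared (32 at an unadjusted p under 0.05), 11 with the 15 controls, 1 against a log2 difference of 1, 8 with rows summed over species and 0 with the total as covariate. Leaving out 1 library gave 0 to 30 calls; the lowest was without replicate 7 at 32 °C and the highest without replicate 3. It was 8 without replicate 8 and 10 without replicate 6 at 32 °C, 12 without replicate 5 at 24 °C, and 1 each without replicate 9 at 32 °C and replicates 3, 8 and 9 at 24 °C. Settings chosen after seeing the data gave 0 calls without the 2 deepest 32 °C libraries (57 unadjusted), and 24 with DESeq2 and 28 with limma voom without replicate 7. The interaction gave 19 calls with DESeq2 and 1 with limma voom. Over 28 settings miR-143 lost its call in 5, miR-16b in 11 and miR-126b-3p in 15, all with positive differences. The cause was not tested.

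The fold between library totals was 2.35 to 5.85 with 1 library left out, and the difference in rows detected 79.8 to 142; without replicate 3 at 32 °C (142, exact p = 0.0159) or replicate 6 (139, exact p = 0.0238) it passed 0.05. Signs turned in rows that were not called. Log2 differences were -3.91 for miR-216b, -0.24 for miR-10b-5p, -0.37 for miR-21, -0.45 for miR-731, -0.73 for oni-miR-462 and -1.38 for miR-183-5p with the covariate. Without the 2 deepest libraries they were -1.999 for miR-216b, -0.16 for miR-21, -0.25 for miR-731, -0.45 for oni-miR-462 and -0.58 for miR-183-5p. With zebrafish rows alone they were -0.16 for miR-21, -0.42 for miR-183-5p and -0.45 for let-7b. Total scaling gave -0.063 for oni-miR-462, -0.080 for miR-183-5p and -0.29 for let-7b; DESeq2 without replicate 7 gave -0.016 for miR-21 and -0.12 for oni-miR-462; limma voom gave 0.61 for miR-206-3p. let-7b was also negative with RLE (-0.080), DESeq2 (-0.079), limma voom (-0.20), the stricter filter (-0.084), the replicate block (-0.030) and summed rows (-0.10). With 1 library left out, ssa-miR-202-5p ran from -7.62 to 2.82, miR-92a-3p from -1.45 to 0.16, miR-206-3p from -4.32 to 0.84, miR-125a from -1.11 to 0.076, let-7b from -0.12 to 0.92 and miR-183-5p from -0.55 to 8.91. The median over all tested rows itself ran from 0.26 to 1.41 in these settings.

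Replicate numbers 3, 8 and 9 occur in both groups, with correlations of deviations of 0.107, 0.104 and -0.0013, and 1 of 3 libraries correlated best with its own number, so no clear pairing was seen, and the labels do not state one. With the replicate block 2 rows were called and miR-16b was not (2.79, edgeR, adjusted p = 0.153). A comparison within the totals shared by both groups was not run, since 0 of the 5 libraries at 32 °C lay in it.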
